A study of Mus musculus with 52 samples.

Results

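The comparison described here is that of the suprachiasmatic nucleus (SCN) after 3 h of light with the SCN in the dark at circadian time (CT) 17, the time at which the light came on. Circadian time follows the endogenous rhythm of mice without light cues, and CT17 lies in the subjective night. The 6 libraries were chosen by their labels, 2 of 3 h light and 4 of CT17 dark, out of the 16 bulk RNA-seq libraries of a light-pulse experiment and the 52 samples of the series. All came from wild-type male mice of 11 to 12 weeks, and each library pooled 6 pairs of SCN. The dark libraries are numbered 1 and 2, without and with a suffix s that the labels do not explain. The other groups of the experiment, used as reference, were dark at CT23 (2 libraries) and light of 0.5 h (4 libraries), 1 h and 6 h (2 libraries each). The 3 h of light ended at CT20, a time for which no dark library was analysed here, so hours passed and hours of light cannot be told apart against CT17 alone. CT23 dark was therefore set on the other side.

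The SCN is the circadian pacemaker of mammals. Light reaches it through glutamate and PACAP released by retinal fibres, and the calcium and cAMP signals that follow activate MAP kinases and the transcription factor CREB, which binds cAMP response elements (CREs) in promoters. Immediate-early genes such as Fos and the clock gene Per1 respond first. Secreted peptides, feedback inhibitors of the same kinases and synaptic genes come later, and light in the subjective night shifts the phase of the clock.

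The 3 h libraries held 12650298 and 14193096 counted reads, the dark CT17 libraries without the suffix 13273367 and 13656162, and those with it 30149286 and 30072955. The suffix goes with the batch given in the labels: dark CT17 libraries 1 and 2 belong to batch 1, libraries 1s and 2s to batch 2, and both 3 h libraries to batch 2 without the suffix. With a term for the suffix, the 3 h libraries were in effect compared with dark libraries of batch 1, so that label batch and light cannot be told apart there. Of the 16 libraries, 1 of the 0.5 h group, number 2 without the suffix, stood apart on the second principal component (16.7% of the variance). It entered the fit through the suffix term, and so through the fitted changes themselves, as well as through the shared estimate of the spread. Without it 511 genes were called in place of 471.

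After 3 h of light 319 genes were higher than in CT17 dark (2.2% of the 14524 tested) and 152 were lower (1.05%), at an adjusted p of 0.05 in edgeR's quasi-likelihood test with the suffix as a term. The rises were larger than the falls: the median log2 change was 0.54 among the called higher genes and -0.41 among the called lower ones, and 64 genes were higher but 10 lower by more than 1 in log2. The median over all genes tested was -0.02. In CPM, counts scaled to a common library total, 305 of the 319 higher genes had both 3 h libraries above all 6 dark libraries, CT23 included. That held for 8.03% of all genes tested. Of the 152 lower genes 115 had both 3 h libraries below all 6, against 7.81% of all genes. The CT17 libraries had already been used to call these genes, so only the CT23 side of those counts adds information.

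**Figure D1:**
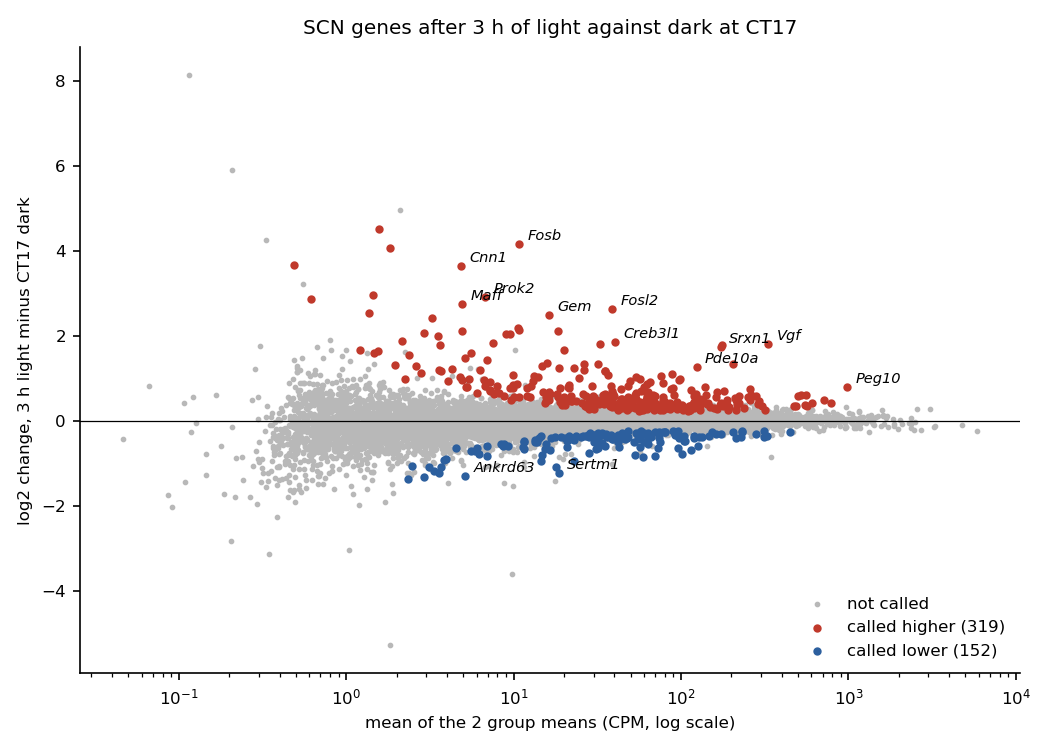
Log2 change of each gene tested (3 h light minus CT17 dark) against the mean of the group means in CPM on a log axis, with the 319 genes called higher in red, the 152 called lower in blue and the others in grey. Fosb leads the rises among the labelled genes at 4.16, while the labelled falls, Ankrd63 and Sertm1, lie at -1.29 and -1.24.

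How many genes passed depended on how the libraries were matched. With only the 12 libraries without the suffix, so that dark CT17 is libraries 1 and 2, 168 genes were higher (1.17%) and 29 lower (0.202%) of 14390 tested. Of these, 166 and 29 were also called with the suffix term. With the suffix and the label batch both as terms, 65 were higher (0.448%) and 1 was lower (0.00689%). In that fit the batch effect rests on the difference between the 2 CT23 libraries alone, which is 1 library in each batch. The 1 lower gene was Tmc7, a member of a family of channel-like membrane proteins, named for being the only one. It stood at 38.7, 36.7, 41.5 and 40.3 CPM in dark CT17 libraries 1, 2, 1s and 2s and at 25.0 and 23.3 CPM after 3 h. Against both CT23 dark libraries, at 28.9 and 31.2 CPM, the difference of Tmc7 was -0.31 (adjusted p = 0.0584). Of the 81 genes picked by rule for naming, 46 were higher, 39 of them also without the suffixed libraries and 25 with both terms. Another 27 were lower, 15 of them also without the suffixed libraries and 0 with both terms, where 21 of the 27 had an unadjusted p under 0.05. With DESeq2 and the suffix term 26 of the 27 passed. Leaving out each of the 6 libraries in turn, 36 of the 46 rises but 7 of the 27 falls passed every time. The labels do not say whether libraries of a group come from separate animals or days, so that p-values measure the spread between libraries, which may be technical.

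**Figure D2:**
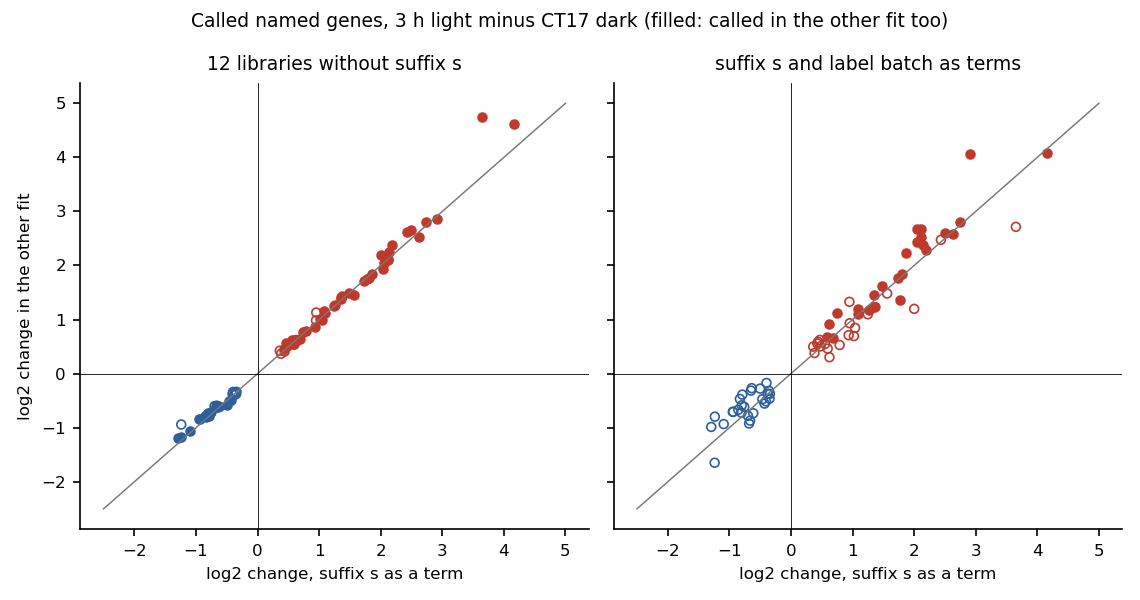
Log2 change (3 h light minus CT17 dark) of the named genes called with the suffix as a term, against the change in 2 other fits, with filled circles for genes called there too and the grey line marking equal values. On the left, 39 of 46 higher and 15 of 27 lower genes are filled, and on the right 25 and 0.

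Immediate-early genes, a list of transcription factors that also holds the synaptic gene Arc, were still raised after 3 h. Of 31 measured, 18 were higher and 0 lower than in CT17 dark, with a list median of 0.74 against -0.02 for all genes. Against CT23 dark 13 of the 31 were higher and 0 lower. With the suffix and the label batch both as terms 7 were higher than in CT17 dark and 0 lower. The AP-1 subunit Fosb stood at 0.674, 0.964, 1.71 and 1.82 CPM in dark CT17 libraries 1, 2, 1s and 2s, the order kept from here on, and at 18.8 and 21.7 CPM after 3 h. The lowest 3 h value was thus far above the highest dark one, and the log2 change was 4.16 ± 0.21 (SE; adjusted p = 1.65e-08). Fosl2, another AP-1 subunit, stood at 11.8, 11.5, 9.53 and 10.2 CPM in the dark and at 58.7 and 74.8 CPM after 3 h, a rise of 2.62 ± 0.14. Fos itself went from 5.99 to 7.79 CPM across the dark libraries to 26 and 33.8 CPM, a rise of 2.11 ± 0.16 for Fos. Its CT23 dark libraries lay higher, at 15.3 and 10.3 CPM, and against them Fos rose by 1.24 ± 0.17 (adjusted p = 0.0007).

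Maff, a small Maf protein that pairs with AP-1 and CNC factors, stood at 0.899, 1.56, 1.22 and 1.43 CPM in the dark and at 7.63 and 9.60 CPM after 3 h (2.74 ± 0.23). Egr3, a zinc-finger factor, rose by 2.43 ± 0.27 to 6.04 and 4.58 CPM, from at most 1.51 CPM in the dark. With both terms its adjusted p was 0.221. Its relatives Egr1 and Egr2 rose by 1.81 and 2.96. The activity-dependent nuclear receptor gene Nr4a3 rose by 1.17 ± 0.16, to 41.7 and 55.0 CPM, whereas Nr4a2 had a change of 0.58 with overlapping libraries (7.23 and 9.89 CPM after light, 5.71 to 7.28 in CT17 dark) and an adjusted p of 0.0898. Npas4, a bHLH-PAS factor induced by neuronal activity, stood at 9.46 and 6.84 CPM after 3 h, among or below dark values of 9.27 to 11.5 CPM. Its log2 change was -0.37 ± 0.19 (adjusted p = 0.383) with the suffix term and 0.12 with both terms.

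Of the 31 immediate-early genes 0 were higher after 3 h than after 1 h in edgeR (0 in DESeq2, 1 at an unadjusted p under 0.05). Of the same 31, 19 were lower in edgeR, with a list median of -1.19 from 1 h to 3 h. Over all genes, 117 were higher at 3 h than at 1 h (0.806%) and 105 lower (0.723%). The log2 difference from 1 h to 3 h was -2.51 for Egr3, -2.48 for Fosb and -2.29 for Fos. Fosb had stood at 114 CPM in both 1 h libraries, so its 3 h level was already below an earlier one. Maff (-0.84 from 1 h, adjusted p = 0.065) did not pass.

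Genes that feed back on MAP kinase and cAMP signalling formed the other strongly raised list. Of 23 measured, 13 were higher and 0 lower, with a median of 0.59, and 13 were also higher than in CT23 dark, where 242 genes (1.67%) were higher and 113 (0.778%) lower over all. Gem and Rrad, small GTPases that restrain voltage-gated calcium channels, led the list. Gem stood at 4.50, 4.38, 4.89 and 5.53 CPM in CT17 dark, at 5.87 and 5.43 CPM in CT23 dark, and at 25.0 and 30.8 CPM after 3 h. Its rise was 2.50 ± 0.14 against CT17 and 2.31 ± 0.16 against CT23. Unlike Fosb it was still at its 1 h level (28.4 and 28.0 CPM), with a difference of -0.01 ± 0.14. Rrad rose by 2.19 ± 0.18 to 16.2 and 18.5 CPM, down from 47.3 and 52.6 CPM at 1 h.

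Phosphatases that inactivate MAP kinases were raised to different degrees. Dusp4 stood at 3.37, 4.15, 3.64 and 3.19 CPM in CT17 dark and at 13.4 and 15.6 CPM after 3 h (2.04 ± 0.17). CT23 dark libraries of Dusp4, at 7.48 and 5.70 CPM, lay between, and against them the rise was 1.15 ± 0.18. Dusp1 rose by 1.26 ± 0.12 to 32.1 and 32.6 CPM and Dusp5 by 1.79 ± 0.20 to 6.52 and 4.80 CPM. Dusp6, by contrast, had a change of 0.01 (adjusted p = 0.989), with 15.8 and 19.5 CPM after light among dark values of 14.3 to 18.8. The ERK inhibitor genes Spry4 and Spred3 rose by 1.33 and 0.97, the salt-inducible kinase gene Sik1 by 0.87, and Crem, whose short products repress CRE-driven transcription, by 1.17 ± 0.12.

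Phosphodiesterases, which break down cyclic nucleotides, contributed 4 higher and 0 lower of 18. Of these, Pde10a and Pde4d are also counted among the higher feedback genes. Pde10a stood at 71.2, 71.7, 79.4 and 78.1 CPM in CT17 dark and at 179 and 166 CPM after 3 h, a rise of 1.26 ± 0.06 (adjusted p = 1.06e-08). Both 1 h libraries (76.8 and 72.1 CPM) lay within the dark range, so the rise came between 1 h and 3 h (1.22 ± 0.07). At 6 h it was at 91.2 and 92.7 CPM, close to CT23 dark (84.7 and 90.3). Pde7b rose by 0.55 ± 0.08 to 181 and 199 CPM, Pde2a by 0.43 ± 0.08 and Pde4d by 0.62 ± 0.13. Without the suffixed libraries the adjusted p of Pde4d was 0.0745, and with both terms only Pde10a of these 4 passed.

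**Figure D3:**
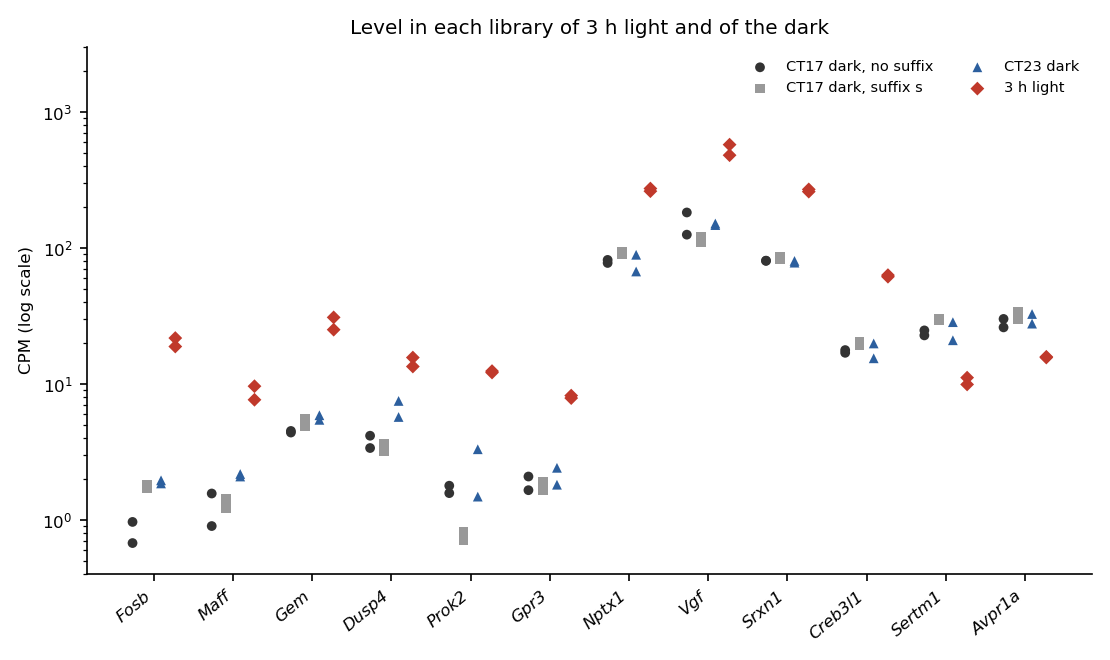
Level of 12 genes in each library, in CPM on a log axis, with circles and squares for CT17 dark without and with the suffix s, triangles for CT23 dark and diamonds for 3 h light. For the 10 genes from Fosb to Creb3l1 both diamonds lie above every dark library, as with Gem at 25.0 and 30.8 CPM, and for Sertm1 and Avpr1a both lie below.

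Late-response neuronal genes, a list of secreted, synaptic and growth-arrest genes known to follow the immediate-early wave, held 11 higher and 0 lower of 28, with a median of 0.37. Vgf, the precursor of several secreted peptides, stood at 125, 182, 111 and 120 CPM in CT17 dark and at 480 and 574 CPM after 3 h (1.81 ± 0.13). Nptx1, a secreted pentraxin that clusters glutamate receptors, stood at 77.4, 81.5, 89.7 and 93.9 CPM in the dark and at 261 and 273 CPM after 3 h (1.78 ± 0.09). For both genes the 3 h libraries lay above every 1 h library, by 0.86 in log2 for Vgf and 0.95 for Nptx1. Gpr3, a receptor that raises cAMP without a known ligand, went from 1.64 to 2.08 CPM across the CT17 dark libraries to 8.19 and 7.85 CPM (2.11 ± 0.18).

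Baiap2, a scaffold of the actin cytoskeleton at synapses, stood at 50.9, 48.5, 48.4 and 46.3 CPM in the dark and at 79.6 and 76.3 CPM after 3 h (0.69 ± 0.06, adjusted p = 8.72e-06). It was at 44.8 and 45.0 CPM at 1 h and at 45.7 and 50.6 CPM at 6 h, so that of the times sampled 3 h alone was above the dark range. Homer1, a postsynaptic scaffold, rose by 0.95 ± 0.09 to 57.9 and 72.8 CPM but had been at 143 and 134 CPM at 1 h. The growth-arrest genes Cdkn1a and Gadd45g rose by 1.25 and 1.21, and the Polo-like kinase gene Plk2 by 0.70 ± 0.08 to 44.9 and 51.1 CPM. Bdnf, a neurotrophin of the same list, had a change of 0.42 with an adjusted p of 0.264.

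Among 12 granins and prohormone-processing genes 3 were higher and 0 lower: Vgf, the prohormone convertase gene Pcsk1 and chromogranin A (Chga). Pcsk1 stood at 33.1, 39.2, 30.1 and 35.1 CPM in CT17 dark and at 66.2 and 78.9 CPM after 3 h (1.02 ± 0.12). Chga rose by 0.38 ± 0.07 to 183 and 196 CPM, from 143 to 169 CPM in the dark, though its adjusted p without the suffixed libraries was 0.0603. Chgb (0.17), Scg3 (-0.09) and the convertase gene Pcsk2 (0.02) did not pass. On the deposited RPKM scale, which divides by gene length and so allows genes to be set side by side, the gain of Vgf was the largest of all called genes: its level went from 45.6 to 174 RPKM (means of 4 and 2 libraries). The next gains on that scale, picked after the values were seen, were those of Peg10, a retrotransposon-derived imprinted gene, from 104 to 187 RPKM, and Syt4, a synaptotagmin of dense-core vesicles, from 110 to 175 RPKM. In log2 these rose by 0.80 ± 0.09 and 0.62 ± 0.08.

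Short promoter stretches are shown for 5 of the raised genes, since their promoters hold the palindromic CRE, TGACGTCA, which reads alike on both strands. The sequences and positions are from RefSeq on GRCm38.p6, the assembly behind the mm10 build of the files, each 5′ to 3′ on the strand of the gene, upstream of its start site, with the CRE in capitals:
Maff, chr15:79347465-79347519, plus strand: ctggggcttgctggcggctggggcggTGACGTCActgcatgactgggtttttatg
Dusp1, chr17:26508582-26508641, minus strand: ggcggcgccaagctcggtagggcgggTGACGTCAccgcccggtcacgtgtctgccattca
Pcsk1, chr13:75089753-75089812, plus strand: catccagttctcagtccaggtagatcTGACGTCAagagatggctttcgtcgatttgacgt
Plk2, chr13:110394956-110395015, plus strand: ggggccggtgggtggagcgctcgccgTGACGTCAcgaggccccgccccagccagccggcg
Th, chr7:142900007-142900066, minus strand: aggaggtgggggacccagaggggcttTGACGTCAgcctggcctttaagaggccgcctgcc

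The CRE begins 29 bases before the start site in Maff, 45 in Th, 62 in Plk2, 78 in Pcsk1 and 143 in Dusp1. In the 250 bases before a start site these letters were found for 336 of the 11491 tested genes that the RefSeq promoter table holds (2.92%) and for 22 of the 248 called higher genes in it. The table held only 77.7% of the called higher genes, under the 80% set for such a check, so the comparison of the shares is void and the motif serves here as a description of single promoters. Th, tyrosine hydroxylase, stood at 24.4, 26.1, 20.4 and 21.4 CPM in CT17 dark and at 31.8 and 41.4 CPM after 3 h (0.60 ± 0.15, adjusted p = 0.0404). Its adjusted p was 0.22 without the suffixed libraries, and Th is also a marker of dopamine neurons outside the SCN.

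Histone marks had been profiled in other SCN samples after 1 h of light and in the dark, with 1 peak list for each, so they describe promoters and give no 3 h value. Peaks of H3K4me3, a mark of active promoters, overlapped the promoter window of 300 bases in both lighting conditions for 55 of the 64 named genes with a promoter in the table, and peaks of H3K27ac, found at active enhancers as well, in both for 20. Over all tested genes with a promoter in the table the shares were 88.5% for H3K4me3 and 38.4% for H3K27ac. They were 92.7% and 44.0% among the called higher genes, and 88.8% and 33.6% among the called lower ones. The promoter table held 79.1%, 77.7% and 76.3% of these sets, under the 80% set above, so a comparison of the shares is void here too. The named genes mix rises, falls and genes not called. At Dusp1 the authors' fold enrichment of H3K27ac was 11.4 in the dark (chr17:26507496-26508431) and 13.8 in light (chr17:26508684-26509081). These are separate peaks that do not overlap, each the strongest over the window in its list, so the values do not compare 1 site. The Dusp1 stretch shown above lies between them. At Plk2 the fold enrichment of H3K27ac was 5.89 in the dark and 7.94 in light. For Maff a H3K27ac peak was listed in light only (5.18), for Pcsk1 in the dark only (3.94), and for Th neither mark had a peak. H3K4me3 at Maff had 27.3 in the dark and 29.5 in light. No replicates stand behind these values, and a peak missing from a list can lie just under the caller's threshold.

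The clock genes moved in both directions. Of 23 measured, 7 were higher and 4 lower, and the median was 0.09. Per2 stood at 59.0, 53.4, 55.1 and 55.4 CPM in CT17 dark, at 46.5 and 43.5 CPM in CT23 dark and at 120 and 124 CPM after 3 h. Its rise was 1.09 ± 0.09 against CT17 and 1.44 ± 0.10 against CT23 (adjusted p = 2.44e-06 and 6.8e-07). Per1 stood at 81.4 and 85.7 CPM after 3 h and at 48.2 to 58.5 CPM in CT17 dark, a rise of 0.62 ± 0.10. The period genes thus differed in their course: from 1 h to 3 h Per1 was lower by 1.12 in log2, and Per2 higher by 0.40 ± 0.09 (adjusted p = 0.0477).

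Rora, a nuclear receptor that activates clock genes, rose by 1.35 ± 0.11, from 115, 108, 111 and 114 CPM to 271 and 323 CPM. Its relative Rorb rose by 0.79 ± 0.14 to 161 and 220 CPM. The dark libraries of Rorb split by suffix, with 106 and 114 CPM without it and 65.3 and 67.3 CPM with it, and with both terms its adjusted p was 0.531. Fbxl21, an F-box protein that acts on cryptochromes, stood at 18.3, 17.1, 16.8 and 16.6 CPM in the dark and at 45.9 and 46.8 CPM after 3 h (1.35 ± 0.10), and reached 73.2 and 56.7 CPM at 6 h. Arntl, which encodes the activator BMAL1, rose by 0.36 ± 0.09 to 95.7 and 93.4 CPM, but its adjusted p was 0.0435, and 0.0686 without the suffixed libraries. Bhlhe40, a repressor, rose by 0.26.

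The lower clock genes were Per3, Dbp, Tef and Bhlhe41. Per3 stood at 76.3, 64.1, 79.6 and 79.0 CPM in CT17 dark and at 53.0 and 46.6 CPM after 3 h (-0.47 ± 0.09). In CT23 dark it was at 49.3 and 49.6 CPM, so the 3 h libraries matched the later dark time (0.01 ± 0.10, adjusted p = 0.988). Dbp, a PAR bZip output factor, stood at 34.0 and 33.5 CPM, below all 6 dark libraries (43.4 to 50.9 CPM), with a change of -0.50 ± 0.11 against CT17 and -0.47 against CT23. Dbp passed without the suffixed libraries too (adjusted p = 0.0309) but not with both terms (0.664), nor without either 3 h library. Cry1 (-0.07), Cry2 (-0.12), Clock (0.09) and Nr1d1 (0.41, adjusted p = 0.0662) did not pass. Nr1d1, the gene of REV-ERB alpha, was at 136 and 128 CPM after 3 h, between CT17 dark (96.8 to 114 CPM) and CT23 dark (199 and 157 CPM).

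**Figure D4:**
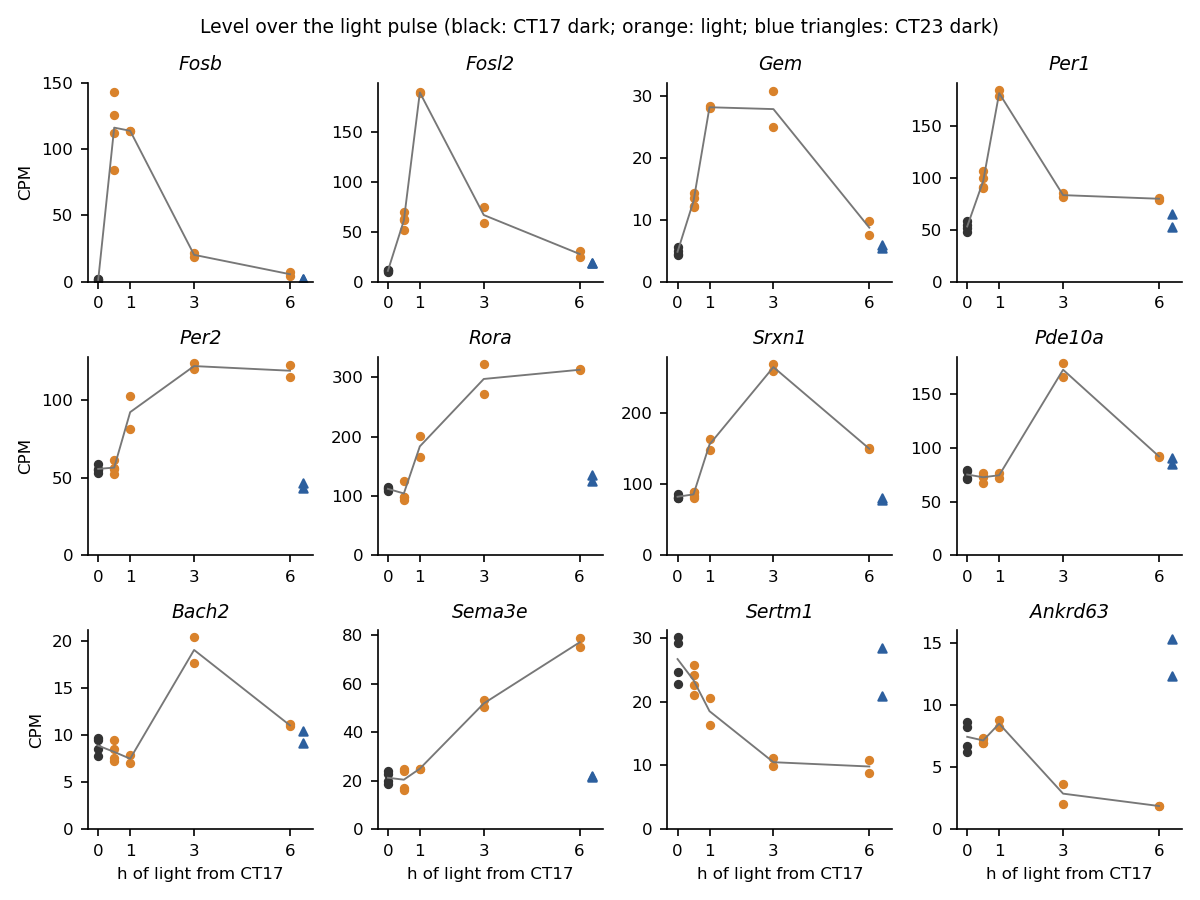
Level of 12 genes in CPM against hours of light from CT17, with 1 point per library, lines through group means, and CT23 dark drawn as triangles just right of 6 h. Fosb and Fosl2 peak at 0.5 or 1 h, Pde10a and Bach2 at 3 h (Pde10a at 179 and 166 CPM), and Sema3e climbs to 6 h, while Sertm1 and Ankrd63 fall.

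Across the 319 higher genes, the mean over libraries without the suffix was highest at 3 h among the 4 light durations for 201, at 6 h for 56, at 1 h for 53 and at 0.5 h for 9. For 0.5 h this leaves out the suffixed libraries and keeps the one that stood apart. Choosing genes by their 3 h level favours 3 h in this count. Among genes called with the same sign against 1 h and against CT17 dark, the 8 with the largest differences from 1 h were named. Of these 8, Ankrd63 and Sgk1 are falls. The rule does not ask on which side of CT17 dark a gene stood at 1 h, so a chosen change need not have grown. Bach2, a repressor that pairs with small Maf proteins, stood at 7.91 and 7.02 CPM at 1 h, within or below the CT17 dark values of 7.79 to 9.64 CPM, and at 17.6 and 20.4 CPM at 3 h. It was higher than at 1 h by 1.35 ± 0.14, and at 6 h it was at 10.9 and 11.1 CPM. Adamts9, a secreted metalloprotease, was at 4.64 and 5.82 CPM at 1 h, below the CT17 dark range of 8.24 to 11.1 CPM, and at 17.5 and 15.1 CPM at 3 h (1.64 ± 0.17 from 1 h, 0.94 ± 0.14 from CT17 dark). Zfp750, a zinc-finger factor, rose from 3.19 to 4.20 CPM across the CT17 dark libraries to 14.2 and 16.4 CPM (2.05 ± 0.19), with a gain of 1.43 after 1 h.

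Cnn1, calponin 1 of smooth muscle, rose by 3.65 ± 0.63, from 0.30, 0.371, 0.418 and 0.455 CPM in the dark to 7.39 and 11.1 CPM. It was at 9.25 and 9.95 CPM at 6 h, and at 5.33 CPM in the 0.5 h library that stood apart. Without that library its change was 4.52, and without the suffixed libraries 4.75. Of 10 endothelial and mural markers 0 passed in edgeR or DESeq2 or at an unadjusted p under 0.05. Their summed levels were 224 to 294 CPM in CT17 dark and 203 to 225 CPM after 3 h. Most of these are not genes of smooth muscle, and whether smooth muscle content differed was not tested. With both terms the SE of Cnn1 was 2.19 and its adjusted p 0.733. Npr1, a natriuretic peptide receptor, rose by 0.95 ± 0.24 to 10.3 and 7.27 CPM (adjusted p = 0.0466) and reached 18.9 and 16.1 CPM at 6 h. Npr1 missed the threshold when any 1 of the 6 libraries was left out. Cmklr1, the chemerin receptor gene, rose by 1.48 ± 0.16 to 7.31 and 7.64 CPM.

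Srxn1, sulfiredoxin, which restores oxidised peroxiredoxins, gave the smallest adjusted p of the named genes. It stood at 80.2, 80.5, 85.7 and 82.2 CPM in CT17 dark, at 80.1 and 77.8 CPM in CT23 dark, and at 269 and 259 CPM after 3 h (1.73 ± 0.06, adjusted p = 8.17e-11). The change was 1.72 without the suffixed libraries and 1.77 with both terms. It was alone in its list: of 15 oxidative stress genes and metallothioneins 1 was higher and 2 lower. Txnip, an inhibitor of thioredoxin, had -0.61 ± 0.13, and the cystine transporter gene Slc7a11 -0.70 ± 0.16, with 3 h libraries that overlapped the dark ones for both.

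Creb3l1, a transcription factor released from the endoplasmic reticulum (ER) by cleavage, stood at 16.9, 17.7, 19.1 and 20.2 CPM in the dark and at 63.0 and 61.3 CPM after 3 h (1.86 ± 0.11). It passed with both terms as well (2.23 ± 0.20). Genes of the unfolded protein response did not rise with it: of 19 measured 0 were higher in edgeR, 0 in DESeq2 and 0 at an unadjusted p under 0.05, and 2 were lower, the ER chaperone cofactors Manf (-0.36 ± 0.08) and Sdf2l1 (-0.41 ± 0.10), and both had CT23 dark levels at, below or close to those after 3 h. Among cytosolic heat shock genes 1 of 15 was higher, the co-chaperone gene Bag3 (0.47 ± 0.11), and 2 were lower, Dnajb1 and Hspa1b. Without the suffixed libraries 0 genes of either list were lower, and Bag3 still passed (adjusted p = 0.0309). With both terms 0 genes of either list passed. Dnajb1, at 73.5 and 91.7 CPM, lay under CT17 dark (101 to 122 CPM) and around the CT23 dark values of 85.1 and 72.8 CPM. Of 5 cold-inducible RNA-binding protein genes 0 passed in edgeR or DESeq2 or at an unadjusted p under 0.05.

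Lif, a cytokine of the gp130 family, went from 1.20, 1.41, 1.16 and 0.878 CPM to 3.50 and 3.71 CPM (1.56 ± 0.25). Socs3, the feedback inhibitor of that pathway, went from 2.47 to 3.19 CPM in the dark to 5.41 and 5.24 CPM (0.95 ± 0.19), and both genes were higher than at 1 h (1.22 and 0.93). They were the 2 called of 16 in the gp130 and JAK-STAT list, neither passed with both terms (adjusted p = 0.333 and 0.162), and Socs3 also missed the threshold without the suffixed libraries (0.0593). Tnfrsf12a, the receptor of the cytokine TWEAK, rose by 2.00 ± 0.32 to 6.20 and 5.09 CPM.

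Adamts1, a secreted metalloprotease of the same family as Adamts9, rose by 1.37 ± 0.22 to 17.6 and 28.7 CPM. Of 21 axon guidance genes only Sema3e passed: it stood at 22.6, 23.8, 18.6 and 19.8 CPM in CT17 dark, at 21.9 and 21.5 CPM in CT23 dark and at 50.4 and 53.4 CPM after 3 h (1.08 ± 0.08), and reached 75.4 and 78.9 CPM at 6 h.

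Potassium channel genes and GABA and glutamate genes were called about as seldom as all genes tested (2.2% higher and 1.05% lower). Of 32 potassium channel genes 0 passed in edgeR in either direction (1 in DESeq2, and 2 higher and 2 lower at an unadjusted p under 0.05), and of 30 GABA and glutamate genes 1 was higher. It was Gad1, which makes GABA, the transmitter of SCN neurons. It stood at 575, 600, 581 and 559 CPM in CT17 dark, at 705 and 694 CPM in CT23 dark and at 828 and 854 CPM after 3 h, a rise of 0.48 ± 0.06 against CT17 and of 0.27 ± 0.07 (adjusted p = 0.0458) against CT23. Among 20 cholesterol synthesis genes 1 was higher, Pmvk (0.44 ± 0.08).

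Peptides of the SCN and their receptors gave 1 higher and 2 lower of 19 measured, with a median of -0.02. The higher gene was Prok2, a secreted output signal of the SCN, at 1.57, 1.78, 0.708 and 0.813 CPM in CT17 dark and 12.1 and 12.4 CPM after 3 h (2.91 ± 0.28). Its dark libraries split by suffix, and the change was 4.07 ± 0.47 with both terms. The lower genes were Avpr1a, a vasopressin receptor, and Npy6r, a receptor of the neuropeptide Y family. Avpr1a stood at 30, 26, 34.0 and 29.7 CPM in CT17 dark, at 32.6 and 27.7 CPM in CT23 dark and at 15.8 and 15.6 CPM after 3 h, with the same change of -0.94 ± 0.15 against either dark time. Npy6r had -0.80 ± 0.20, at 10.2 and 9.53 CPM.

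The transmitters that define SCN neurons did not pass in the fit of all 16 libraries. Vip stood at 250 and 253 CPM after 3 h and at 317, 288, 404 and 388 CPM in CT17 dark (-0.31 ± 0.14, adjusted p = 0.302), and CT23 dark was at 256 and 213 CPM. Avp stood at 44.6 and 48.9 CPM, against 74.8 to 119 CPM in CT17 dark and 70.3 and 29.3 CPM in CT23 dark. Its change of -0.59 ± 0.38 had an adjusted p of 0.503, and the call depended on the libraries and terms fitted: Avp was called lower in the 4 libraries of both groups without the suffix (-0.67, adjusted p = 0.00495) and within label batch 2 (-1.1, adjusted p = 0.00548), and had 0.67 with both terms (adjusted p = 0.775). Grp had 0.08 ± 0.17 and, among the libraries of label batch 2 alone, -0.02. Of 15 transcription factors of SCN identity, Rorb was higher and Lhx1 lower. Lhx1, which controls peptide expression in the SCN, stood at 86.3, 73.9, 109 and 105 CPM in CT17 dark and at 53.5 and 51.8 CPM after 3 h (-0.65 ± 0.13), below CT23 dark (114 and 90.4 CPM) too. Its adjusted p was 0.0623 without the suffixed libraries. Rgs16, which shortens G protein signals in SCN neurons, was higher than in CT17 dark by 0.74 ± 0.11 but lower than in CT23 dark (-0.47 ± 0.11, with 106 and 113 CPM after 3 h, 171 and 132 CPM in CT23 dark).

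The falls were smaller. Ankrd63, which encodes an ankyrin repeat protein, stood at 6.22, 6.68, 8.59 and 8.19 CPM in CT17 dark, at 15.3 and 12.3 CPM in CT23 dark and at 3.66 and 2.04 CPM after 3 h. Its change was -1.29 ± 0.21 against CT17, -2.28 ± 0.21 against CT23 and -1.58 ± 0.22 from 1 h, so that this fall came after the first hour. Sertm1, a small serine-rich membrane protein, stood at 24.7, 22.7, 30.1 and 29.2 CPM in CT17 dark and at 11.1 and 9.89 CPM after 3 h (-1.24 ± 0.16). At 1 h it was at 20.6 and 16.4 CPM, and at 6 h at 8.74 and 10.9 CPM.

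Dsel, an epimerase acting on dermatan sulfate, gave the smallest adjusted p of the named falls (4.6e-05). It stood at 72.3, 64.0, 62.3 and 61.3 CPM in CT17 dark, at 89.5 and 84.8 CPM in CT23 dark and at 40.3 and 41.5 CPM after 3 h (-0.80 ± 0.09), and with both terms its adjusted p was 0.0664. Cobll1 fell by 0.85 in log2 to 41.7 and 41.1 CPM, Syt17, a synaptotagmin, by 0.83 to 45.0 and 47.3 CPM, and Pkib, an inhibitor of protein kinase A, by 0.64 to 71.0 and 68.9 CPM. The ubiquitin-conjugating enzyme gene Ube2d1 fell by 0.79 and Stard13 had -0.68. The uncharacterised transcript C130074G19Rik had -0.94, and 6430573F11Rik was lower too. Means of the 152 lower genes over libraries without the suffix were lowest at 3 h for 91, at 6 h for 59, at 1 h for 2 and at 0.5 h for 0. Here too, choosing genes by their 3 h level favours 3 h in the count.

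Part of the falls matched the later dark time. Ifit3, an interferon-induced gene, stood at 25.3, 25.7, 20.1 and 22.9 CPM in CT17 dark and at 11.4 and 13.1 CPM after 3 h (-1.09 ± 0.21), but at 9.89 and 8.85 CPM in CT23 dark. Among glucocorticoid-responsive genes 2 of 15 were higher (Cdkn1a and Per1) and 3 lower, and the lower ones were low in CT23 dark too. Without the suffixed libraries 2 of the 15 were higher and 0 lower, so none of these falls passed there. From 1 h to 3 h, 0 of the 15 were higher (0.806% of all genes tested) and 4 lower (0.723%). Against CT23 dark 6 of the 15 were higher (1.67% of all genes tested) and 0 lower (0.778%), with a list median of 0.37. Tsc22d3, which encodes GILZ, stood at 72.4 to 78.3 CPM in CT17 dark, at 54.4 and 60.1 CPM after 3 h and at 42.2 and 42.0 CPM in CT23 dark. It was thus lower than in CT17 dark (-0.38 ± 0.08) and higher than in CT23 dark (0.44 ± 0.09, adjusted p = 0.00923). Klf9, a Krüppel-like factor, had -0.34 ± 0.07 against CT17 and -0.02 against CT23, with 80.1 and 81.7 CPM after 3 h beside 81.0 and 82.8 CPM. Sgk1, a serum- and glucocorticoid-regulated kinase, stood at 20.7 and 22.3 CPM after 3 h, at 30.3, 34.4, 43.3 and 53.6 CPM in CT17 dark and at 17.4 and 20.1 CPM in CT23 dark. For these genes light and the passing of time cannot be told apart.

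**Figure D5:**
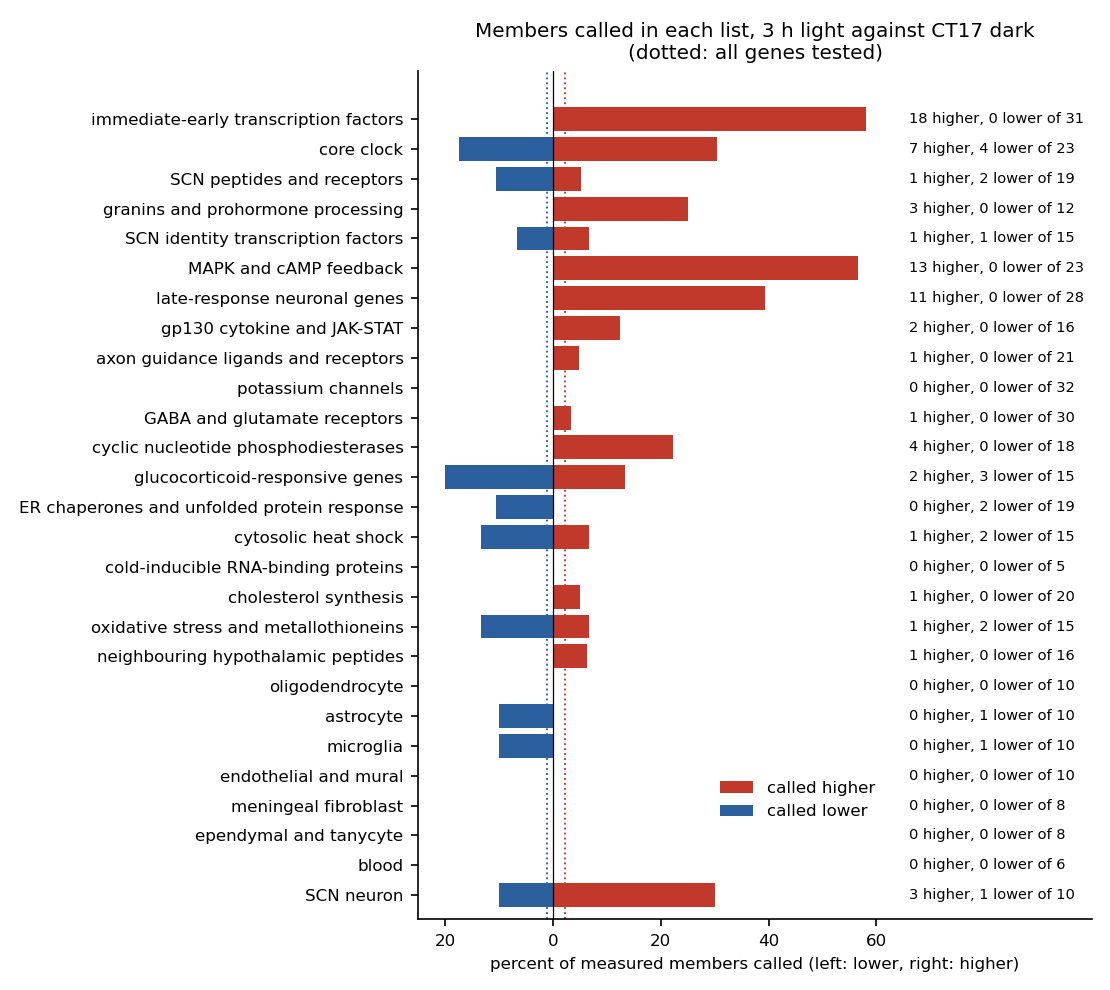
Percent of the measured members of each of 27 lists called higher (right, red) or lower (left, blue) after 3 h of light against CT17 dark, with counts at the right and dotted lines for all genes tested. Immediate-early genes (18 of 31) and feedback genes (13 of 23) lead, and potassium channels have 0.

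Markers of other cells were measured for the tissue itself. In bulk RNA, fewer cells of a type and less RNA per cell cannot be told apart. The SCN is present in all 6 libraries by its neuron markers, whose summed level was 1500 to 1890 CPM in CT17 dark and 1740 to 1760 CPM after 3 h, with 3 of 10 higher and 1 lower. Gad1, itself called higher, makes up a large part of these sums, so they do not rest on SCN-specific genes alone. Oligodendrocyte markers summed to 7880 to 9400 CPM in CT17 dark and to 5990 and 6740 CPM after 3 h. The sums do not overlap, although 0 of the 10 genes passed in edgeR or DESeq2 (1 lower at an unadjusted p under 0.05) and the list median was -0.22. Blood markers summed to 109 to 283 CPM against 57.2 and 79.4 CPM (0 of 6 passed by either tool or at an unadjusted p under 0.05, median -0.66). Of the astrocyte markers 1 of 10 was lower, the water channel gene Aqp4 (-0.35 ± 0.07, at 284 and 309 CPM), within sums of 5440 to 7720 CPM in the dark and 6210 and 6660 CPM after 3 h. Of the microglia markers 1 of 10 was lower, P2ry12, a receptor of resting microglia. It stood at 44.8, 44.7, 48.3 and 45.5 CPM in CT17 dark and at 31.5 and 32.6 CPM after 3 h (-0.43 ± 0.07). The microglia sums were 248 to 282 CPM in CT17 dark and 235 and 238 CPM after 3 h. They do not overlap, as with the oligodendrocyte and blood sums.

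Of 8 meningeal fibroblast markers 0 passed by either tool or at an unadjusted p under 0.05 (median -0.65), and of 8 ependymal markers 0 passed by either tool and 1 at an unadjusted p under 0.05 (median -0.11). Meningeal sums were 88.0 to 326 CPM in CT17 dark, 88.0 and 89.4 CPM of them without the suffix, and 76.2 and 104 CPM after 3 h. Peptides of neighbouring hypothalamic nuclei summed to 404 to 616 CPM in CT17 dark and 558 and 620 CPM after 3 h, and Th was the 1 of 16 called. The part that these shifts in marker level have in the called genes, the lower ones above all, was not tested.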

How the data were processed

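The authors deposited whole-number read counts for 21999 gene symbols and RPKM values (counts relative to gene length and library total) of the same libraries. They also deposited 1 peak list per histone mark and condition, with a linear fold enrichment and a −log10 q-value per peak given by the authors' caller. Per the submitters' processing notes, STAR 2.7.1a, HTSeq 0.9.1, featureCounts 1.6.2, MACS2 2.1.1 and the build mm10 belong to the series. Which of them counted the reads, and with which strand setting, no source used here states, so overlapping and near-identical genes are uncertain.

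All 16 light-pulse libraries were fitted together with edgeR 4.0.16 in R 4.3.3 (filterByExpr, TMM, quasi-likelihood F-test, groups plus the suffix s, Benjamini-Hochberg over 14524 genes, threshold 0.05). CPM are relative to TMM-scaled totals, and errors of log2 changes are SE. The script was tested on simulated counts that held a suffix effect but no label-batch effect. That test therefore says nothing about how the calls depend on label batch. The 2 libraries of 3 h light limit the precision. Libraries of 1 number with and without the suffix differed by a chi-square per degree of freedom of 10.1 and 18.3, more than other pairs, and were kept apart. They may still share a pool.

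Named genes were the 15 largest rises and 12 largest falls also called without the suffixed libraries, with a mean of at least 5 CPM in the higher group and both 3 h libraries outside the CT17 dark range. Added to them were up to 4 called members per list by smallest p, and a standing set of clock and peptide genes with Fos and Npas4. The last added were the 8 largest changes from 1 h among genes called with the same sign against CT17 dark. The comparison, the 29 lists and the alternatives, among them DESeq2 1.42.0, were chosen with earlier results of these data known. Some genes, such as Crem, Vgf and Pcsk1, are in more than 1 list, so the list counts are not separate. Results that need a few withheld items are not reported here. Promoter windows reached from 250 bases before to 50 after a start site, and 1 shared base counted as overlap with a peak.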

Additional observations from a re-analysis of the deposited data

Results flagged for a closer look

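Among the named genes reported here 41 differed between 3 h and 1 h of light, that is, their change against the same CT17 dark libraries was not the same at both durations, by edgeR's test of the difference at an adjusted p of 0.05. Values in parentheses are log2 differences, 3 h minus 1 h. Of these, 21 were above CT17 dark at 3 h and higher than at 1 h: Cnn1 (3.68), Adamts9 (1.64), Npr1 (1.5), Zfp750 (1.43), Bach2 (1.35), Cmklr1 (1.24), Pde10a (1.22), Lif (1.22), Fbxl21 (1.19), Sema3e (1.06), Nptx1 (0.95), Socs3 (0.93), Creb3l1 (0.87), Vgf (0.86), Rorb (0.81), Baiap2 (0.80), Srxn1 (0.77), Rora (0.69), Pde7b (0.52), Per2 (0.40) and Pde2a (0.35). Another 7 were above the dark but lower than at 1 h: Egr3 (-2.51), Fosb (-2.48), Fos (-2.29), Rrad (-1.52), Fosl2 (-1.5), Per1 (-1.12) and Dusp4 (-0.91). The other 13 were below CT17 dark and lower than at 1 h: Sgk1 (-1.63), Ankrd63 (-1.58), Dnajb1 (-1.11), Txnip (-0.97), Sertm1 (-0.82), Syt17 (-0.81), Cobll1 (-0.80), Dsel (-0.74), Pkib (-0.72), Tsc22d3 (-0.61), Sdf2l1 (-0.53), Klf9 (-0.42) and Manf (-0.39). The rule that picked some of the names used this step. All 1 h and 3 h libraries belong to label batch 2 without the suffix.

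Of the 4 CT17 dark libraries, number 2s stood far from the others for Avp, at 119 CPM against 74.8, 75.2 and 81.4 CPM. Chance alone marks about 1 in 20 such groups of libraries.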

How the results depend on the processing

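The number of genes called against CT17 dark moved with the batch term and with the libraries fitted: 471 with the suffix s became 462 with no batch term, 1664 with the label batch in its place (55.8% of them higher, against 67.7%), 66 with both terms (98.5% higher), 197 without the suffixed libraries (85.3% higher), 195 in the 4 libraries without the suffix alone (83.6%), 277 in the 6 libraries of both groups alone (78.7%), 1354 with same-numbered libraries summed (56.3%) and 2809 within label batch 2 (55.9%). The cause was not tested. Leaving out 1 library gave 195 to 368, with 195 without the second and 246 without the first 3 h library and 285 without CT17 dark library 1. Against CT23 dark, 355 became 218 with both terms, 197 with no batch term and 203 without the suffixed libraries, and 161 to 217 without 1 library (161 without CT23 library 2). Against 1 h, 222 became 115 with no batch term and 122 without the suffixed libraries, and 85 to 116 without 1 library (85 without 1 h library 1). Without the 0.5 h library that stood apart, a setting chosen after seeing the data, 511, 438 and 257 genes were called against CT17, CT23 and 1 h. In that setting Nr1d1 passed against CT17 (0.38, adjusted p = 0.0409) and Sdf2l1 did not (-0.37, adjusted p = 0.0654). DESeq2, other size factors and no filter stayed within 1.5 times the count in each comparison. Fits of the 4 or 6 libraries hold no CT23 or 1 h library and were not run for those comparisons.

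Of the named genes, 4 changed sign under 1 setting each, and none of these had passed: with both terms Avp (0.672), Cry2 (0.038) and Npas4 (0.122), and within label batch 2 Grp (-0.017). Without 1 of the 3 h libraries, 10 of 46 rises lost the threshold (Adamts1, Arntl, Bag3, Chga, Npr1, Pde4d, Pmvk, Rorb, Socs3, Th) and 20 of 27 falls, all but Ankrd63, Avpr1a, Cobll1, Dsel, Sertm1, Syt17 and 6430573F11Rik. Libraries of a group share only a number. With the replicate number as a block, 655, 514 and 301 genes were called against CT17, CT23 and 1 h. The difference between 3 h libraries 1 and 2 had a correlation across genes of 0.278 with that between CT17 libraries 1 and 2, 0.201 with CT23, 0.32 with 6 h, 0.0887 with 1 h and -0.0369 with CT17 1s and 2s. Since 2 of these 5 were not above 0.1, the numbers were not taken as pairs. Differences among low genes were not detectable at 12650298 to 30149286 reads where few reads were counted.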
